A study of Homo sapiens with 2 samples.

Results

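The ATAC-seq peaks at 9 genes of the p53 and RB pathways were examined in 293T cells, with and without methylglyoxal (MGO). The genes were RB1, CDKN1A, MDM2, BAX, BBC3, FAS, GADD45A, SESN1 and PCNA, taken by name as 9 of the 20033 protein-coding genes of GENCODE 44 on chromosomes 1 to 22, X and Y. For each gene, every deposited peak was collected that lay within 1000 bp of a transcription start site (TSS), over the gene body, or within 50 kb of a TSS.

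ATAC-seq marks accessible chromatin by the places where a transposase inserts sequencing adapters. MGO is a reactive dicarbonyl by-product of sugar metabolism that glycates proteins and DNA, and the study asked how it alters chromatin. The control group was 1 library from 293T cells in fresh medium without MGO, whose treatment label reads PBS, and the MGO group was 1 library from 293T cells given 0.5 mM MGO for 12 h. Each library was made from 50000 cells. The 293T line is a human embryonic kidney derivative that carries the SV40 large T antigen, a viral protein that binds both p53 and RB, so the pathways studied here are already perturbed in both groups. With 1 library per condition analysed here there was no replicate check and no test, and every difference below is between these libraries. The study's methods describe a consensus of peaks by reproducibility, and whether further replicate libraries were made is unknown here.

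The control list held 36142 peaks covering 30.3 Mb, and the MGO list held 22884 peaks covering 19.5 Mb. Each peak carries its fold enrichment over background (a ratio) and the −log10 of its p-value as the authors' peak caller gave them. The median fold enrichment was 3.10 in control and 3.09 in MGO. Read counts per peak were not part of the lists, which leaves the depth behind each peak unknown and gives no counting interval. The line's identity was read from peaks at marker genes. All 5 of NEFL, NEFM, INA, VIM and PAX2, which 293T cells are known to express, had a TSS peak in both libraries, as did 62.6% of all protein-coding genes. With a −log10 q (q is the p-value adjusted for multiple testing) of at least 2, 4 of the 5 did, and NEFM had one in control only. Of 6 markers of other lineages (PTPRC, CD3E, ALB, INS, MYOD1 and CDH5), only MYOD1 had a TSS peak, a 2347 bp region in control and none in MGO.

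p53 is a transcription factor that stress stabilises, and its targets halt the cell cycle, start apoptosis or aid repair. MDM2 marks p53 for destruction and is itself a p53 target, which closes a feedback loop. RB, the product of RB1, holds E2F factors inactive until cyclin-dependent kinases phosphorylate it, and CDKN1A encodes p21, an inhibitor of those kinases, so that it links the p53 and RB arms.

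All 9 genes had a TSS peak in both libraries. No gene of the 9 was in 1 library only. Of all protein-coding genes with a control TSS peak 7.01% had none in MGO, and of those without one in control 3.87% had one in MGO. Among all protein-coding genes, 67.3% had one in control, 63.9% in MGO and 62.6% in both. With peaks of −log10 q of at least 2, 8 of the 9 had one in control and all 9 in MGO, beside 63.3% and 57.8% of all protein-coding genes. The transcripts of the 9 genes start at 98 TSSs, which were grouped into 37 promoters by joining TSSs within 500 bp of each other. A control peak lay at 16 promoters and an MGO peak at 15, and each of the 15 also had a control peak. With −log10 q of at least 2 the order turned at these genes, with a control peak at 14 promoters, an MGO peak at 15 and both at 14. TSS peaks were then 10 in control and 11 in MGO. Over all protein-coding genes the order did not turn at that threshold. Peaks lay at 25.1% of their promoters in control and 22.4% in MGO, and their TSS peaks were 11991 and 10617. Among all deposited peaks the shares of promoters of the 9 genes were 43.2% and 40.5%, beside 27.5% and 25.3% of all promoters of protein-coding genes. No peak lay near the other 21 promoters in either library. The promoter with a peak in control only was the canonical promoter of BBC3, and 11.8% of all promoters with a control peak had none in MGO. Peaks enclosed 66 of the 98 TSSs in control and 61 in MGO, of which 33 in each library lay in 1 promoter of FAS. No share over all TSSs is given here.

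**Figure D1:**
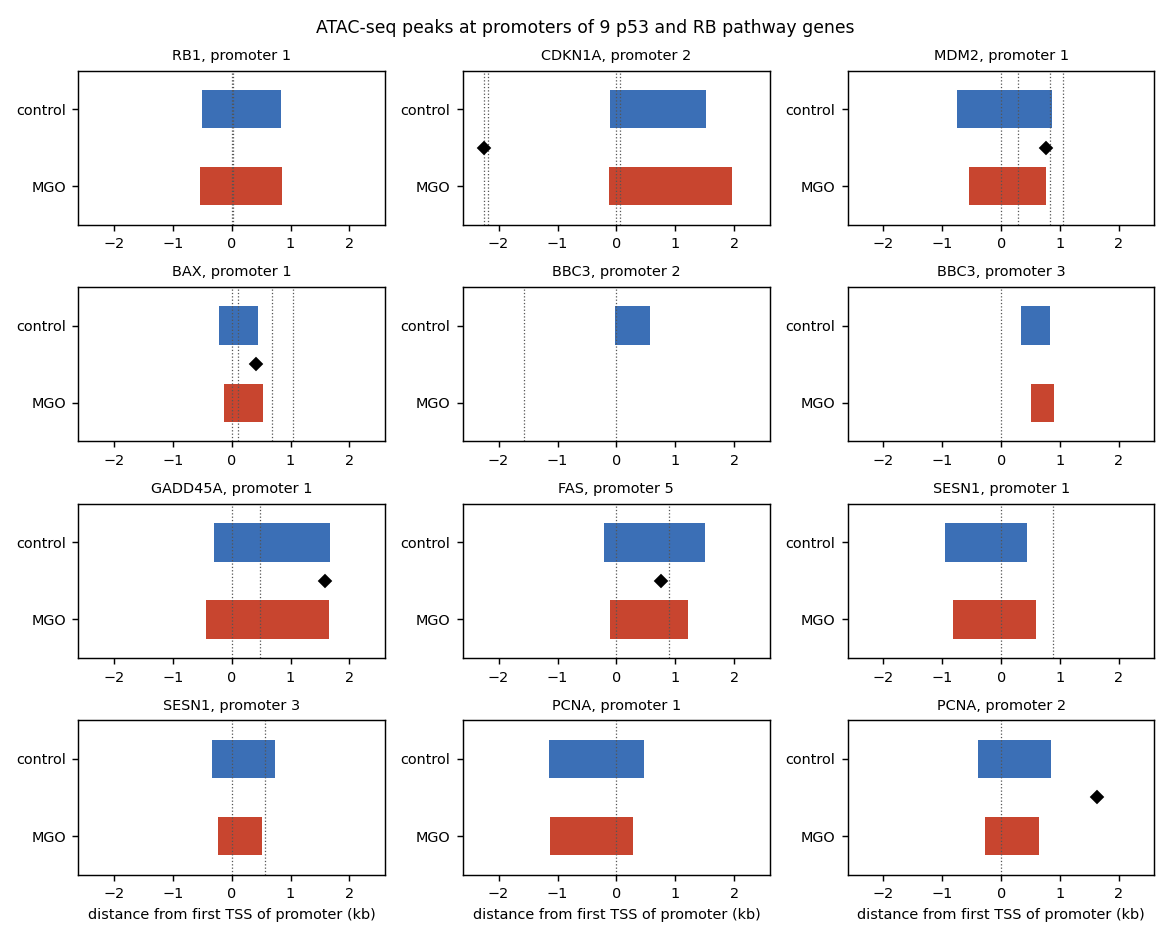
Peaks at the promoters of the 9 genes with a peak in either library, as bars over the distance from the first TSS of the promoter in kb, 5′ to 3′, for the control (blue) and MGO (red) libraries. Dotted lines mark the first and last TSS of each promoter in view and diamonds the centres of p53-like elements with at most 2 mismatches. A bar is present in both libraries in all panels but that of BBC3 promoter 2.

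The control list had 12 TSS peaks at these genes, of which 11 overlapped an MGO peak by at least 1 bp. Genome-wide, 12.3% of control TSS peaks of protein-coding genes overlapped none. All 11 MGO TSS peaks overlapped a control peak, beside 3.65% without overlap genome-wide. The 11 pairs matched 1 to 1. Within the pairs, 6 peaks were narrower and 5 wider in MGO, and the median width ratio (MGO over control) was 0.879. Of the 11559 such pairs at protein-coding genes, 67.9% were narrower, with a median ratio of 0.900. The fold enrichment was lower in MGO in 8 of 11 pairs (74.7% genome-wide), and the −log10 p was lower in 8 of 11 (77.5%). The upstream edge lay inward in MGO in 8 of 11 pairs (69.8% genome-wide) and the downstream edge in 6 of 11 (57.7%). Over all 11 pairs these shares lay near the shares of all genes, and with so few pairs no departure was read.

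**Figure D2:**
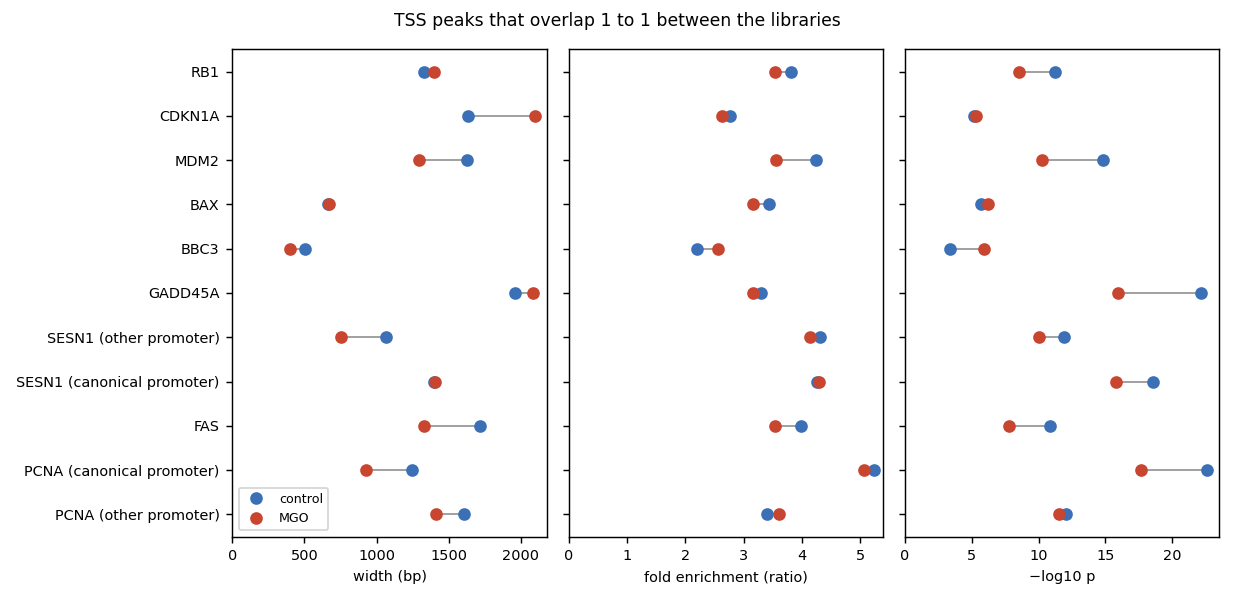
Width in bp, fold enrichment (a ratio) and −log10 p of the 11 TSS peaks that overlapped 1 to 1, for the control (blue) and MGO (red) libraries, with a line joining each pair. The −log10 p was lower in MGO in 8 pairs and higher in those of CDKN1A, BAX and BBC3.

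RB1 encodes the retinoblastoma protein, the central brake on E2F. The gene (ENSG00000139687.16) lies on the plus strand at chr13:48303744-48599436 and has 4 promoters. Of these the 5′ promoter had a peak, and its 150 bases before the first TSS are shown because they contain an E2F-like motif, in capitals (GRCh38, chr13:48303594-48303743, plus strand).
RB1 promoter 1: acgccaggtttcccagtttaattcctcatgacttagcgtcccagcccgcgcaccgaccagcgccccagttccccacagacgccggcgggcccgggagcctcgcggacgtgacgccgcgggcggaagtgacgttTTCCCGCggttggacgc

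The control peak at this promoter, chr13:48303247-48304578, was 1332 bp wide, with a fold enrichment of 3.81 and a −log10 p of 11.2. The MGO peak, chr13:48303199-48304599, was 1401 bp wide, with a fold enrichment of 3.54 and a −log10 p of 8.53. The MGO peak enclosed the control peak whole and was 1.05 times as wide, while its enrichment was lower. Both peaks covered all 4 TSSs of the promoter and were shared with the divergent transcript RB1-DT. The promoters at 48381250, 48444828 and 48476400 had no peak in either library. Inside the gene, 1 further peak lay in an intron at the TSSs of RCBTB2 and of 3 unnamed genes. It was 1051 bp wide in control (chr13:48532265-48533315, −log10 p 16.3) and 879 bp in MGO (chr13:48532468-48533346, −log10 p 12.2), with 848 bp in common.

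CDKN1A encodes p21. The gene (ENSG00000124762.14) lies on the plus strand at chr6:36676460-36687337 and has an upstream promoter that starts at −2254 bp from its canonical TSS. A p53-like element is used here for 2 adjacent copies of the 10-base p53 pattern (3 purines, C, 2 of A or T, G, 3 pyrimidines), with at most 2 mismatches of 20 and each core C and G in place. The pattern is its own reverse complement, so that 1 strand covers both. Both such elements near CDKN1A are printed with the element in capitals, since 1 lay under a peak and the other at the unmarked upstream promoter (GRCh38, plus strand, chr6:36667243-36667292 and chr6:36676444-36676473).
CDKN1A distal element: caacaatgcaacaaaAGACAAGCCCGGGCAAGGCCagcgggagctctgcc
CDKN1A upstream promoter element: gtcagGAACATGTCCCAACATGTTGagctc

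The peak at the canonical promoter of CDKN1A was wider in MGO. In control, chr6:36678600-36680230 was 1631 bp wide, with a fold enrichment of 2.76 and a −log10 p of 5.15. In MGO, chr6:36678577-36680671 was 2095 bp wide, with a fold enrichment of 2.62 and a −log10 p of 5.30. The control peak lay whole within the MGO peak, and the difference of 1.28 times in width came mostly from the downstream edge, which was 441 bp farther into the gene in MGO. Both peaks covered the 5 TSSs of the canonical promoter, lay also at the TSS of the lncRNA DINOL, and ranked near the middle of their lists by −log10 p (50.1% of control and 45.6% of MGO peaks were lower). By fold enrichment they ranked low (22.5% of control and 12.9% of MGO peaks were lower), and by width high (93.3% and 97.8% were narrower). The upstream promoter (36676460 to 36676528) had no peak in either library, and its p53-like element, with 2 mismatches, lay 2131 bp from the nearest control peak and 2108 bp from the nearest MGO peak. The distal element, with 1 mismatch, lay at −11446 bp from the canonical TSS in a peak of the control list only, chr6:36666576-36667836. That peak was 1261 bp wide, with a fold enrichment of 2.80 and a −log10 q of 1.66, below the threshold of 2 that the study's q of 0.01 sets.

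MDM2 encodes the ubiquitin ligase of p53. The gene (ENSG00000135679.27) lies on the plus strand at chr12:68808177-68845544. Its transcripts start from a 5′ promoter (68808177 to 68808464) and from an internal promoter in the first intron (68809002 to 68809226), which is known as the p53-responsive one. The p53-like element before the internal promoter is shown because the edge of the MGO peak fell within it (GRCh38, plus strand, chr12:68808908-68808957, element in capitals).
MDM2 intronic element: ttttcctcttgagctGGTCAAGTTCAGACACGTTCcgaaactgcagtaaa

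The control peak of MDM2, chr12:68807422-68809045, was 1624 bp wide, with a fold enrichment of 4.24 and a −log10 p of 14.8. The MGO peak, chr12:68807636-68808931, was 1296 bp wide, with a fold enrichment of 3.56 and a −log10 p of 10.3. The MGO peak lay whole within the control peak at 0.798 times its width, and both edges were inward, by 214 bp upstream and 114 bp downstream. All 6 TSSs of the 5′ promoter lay in both peaks. Of the 6 TSSs of the internal promoter, the control peak enclosed 3 and the MGO peak none, ending 71 bp before the nearest. The intronic element, with 2 mismatches, was covered over its 20 bases in control and over 9 of them in MGO. Broad-peak edges are set by the peak caller, and the error of an edge is not known from 1 library. The other 5 promoters of MDM2 had no peak, and no other peak lay over the gene or within 50 kb of its TSSs in either library.

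Among the apoptosis genes, BAX encodes a pore-forming protein of the outer mitochondrial membrane, BBC3 encodes PUMA, which frees BAX to act, and FAS encodes a death receptor at the cell surface. BAX (ENSG00000087088.21) lies on the plus strand at chr19:48954815-48961798. BBC3 (ENSG00000105327.18) lies on the minus strand at chr19:47220822-47232766. FAS (ENSG00000026103.25) lies on the plus strand at chr10:88953813-89029605. The p53-like elements under the BAX and FAS promoter peaks are shown with the element in capitals (GRCh38, plus strand, chr19:48955208-48955237 and chr10:88991304-88991333), as each was covered in both libraries. Both lie over exons of the annotation.
BAX element: cccccGGGCAGGCCCGGGCTTGTCGcccgc
FAS element: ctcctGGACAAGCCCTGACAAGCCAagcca

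BAX differed little between the libraries. Its control peak, chr19:48954609-48955268, was 660 bp wide, with a fold enrichment of 3.43 and a −log10 p of 5.70, and its MGO peak, chr19:48954685-48955355, was 671 bp wide, with a fold enrichment of 3.16 and a −log10 p of 6.21. The peaks shared 584 bp, and the MGO peak was shifted downstream, by 76 bp at the upstream edge and 87 bp at the downstream edge. Both covered the 4 TSSs of the canonical promoter and the element, which has 2 mismatches, and both ended before the internal promoter at 48955508, at 240 bp in control and 153 bp in MGO. Within 50 kb of BAX, 1 peak was found in MGO only, chr19:48933536-48933874 at the TSS of DHDH, 339 bp wide with a −log10 p of 4.76. The peaks at FTL and at GYS1 and RUVBL2 were present in both libraries.

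BBC3 was the gene whose peaks differed most. At its canonical TSS (47231199), the control list had a 596 bp peak, chr19:47230633-47231228, with a fold enrichment of 2.46 and a −log10 p of 4.17, and the MGO list had none. This control peak was weak, as 31.9% of the control list was lower by −log10 p and its −log10 q was 1.92. Near the internal promoter at 47227189, both lists had a peak, but neither reached the TSS. In control, chr19:47226356-47226861 was 506 bp wide at 328 bp from the TSS, with a fold enrichment of 2.21 and a −log10 p of 3.38. In MGO, chr19:47226290-47226689 was 400 bp wide at 500 bp from the TSS, with a fold enrichment of 2.56 and a −log10 p of 5.92. This peak, which lies at the microRNA genes MIR3190 and MIR3191 and shared 334 bp between the libraries, was narrower but more enriched in MGO. With peaks of −log10 q of at least 2 alone, BBC3 had a TSS peak in MGO and none in control, so the direction of its call turned with the threshold. The 3 further peaks within 50 kb of BBC3, at ENSG00000289915, CCDC9 and INAFM1, were present in both libraries. The MGO peak at INAFM1 had a −log10 q of 1.82, below 2.

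FAS had 33 of its 41 TSSs in 1 promoter (88990559 to 88991448), and both peaks covered all 33. The control peak, chr10:88990349-88992062, was 1714 bp wide, with a fold enrichment of 3.98 and a −log10 p of 10.8. The MGO peak, chr10:88990452-88991777, was 1326 bp wide, with a fold enrichment of 3.54 and a −log10 p of 7.76. The MGO peak lay whole within the control peak at 0.774 times its width, with the edges inward by 103 bp upstream and 285 bp downstream. The region is shared with TSSs of ACTA2, and the element, with 2 mismatches, was covered in both. The other 7 promoters of FAS had no peak. A peak away from any TSS, 18.2 kb before the nearest FAS TSS, was 650 bp wide in control (chr10:88934932-88935581, fold enrichment 4.81) and 561 bp in MGO (chr10:88935019-88935579, fold enrichment 3.47). That TSS, at 88953813, belongs to a promoter without a peak, and the control peak began at −55866 bp from the canonical TSS. Peaks in control only were chr10:89029791-89030101, of 311 bp, and chr10:88932591-88933008, at the TSS of ACTA2-AS1. The former had a −log10 q of 1.91, below 2.

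GADD45A, which encodes a stress-induced protein that binds PCNA and p21, had a wide promoter peak in both libraries. The gene (ENSG00000116717.13) lies on the plus strand at chr1:67685201-67688334 and has 1 promoter with 5 TSSs. Its intronic p53-like element, with 1 mismatch, is the closest match found under a peak in both libraries (GRCh38, plus strand, chr1:67686760-67686809, element in capitals).
GADD45A intronic element: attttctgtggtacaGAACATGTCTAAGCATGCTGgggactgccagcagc

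The control peak of GADD45A, chr1:67684907-67686866, was 1960 bp wide, with a fold enrichment of 3.29 and a −log10 p of 22.2. The MGO peak, chr1:67684767-67686849, was 2083 bp wide, with a fold enrichment of 3.15 and a −log10 p of 15.9. The peaks shared 1943 bp and both covered every TSS and the element, which lies near their downstream edges. GADD45A also had more peaks away from any TSS than any of the other 8 genes, in each library. With −log10 q of at least 2 this held in control alone, since in MGO GADD45A then tied with FAS. Of all deposited peaks of GADD45A away from any TSS, 3 regions 3′ of the gene were in both lists. At 14.8 kb (control) the peak was 978 bp wide in control and 1083 bp in MGO, with a fold enrichment of 4.31 and 3.57. At 27.7 kb it was 886 bp and 526 bp wide, and at 33.6 kb it was 1012 bp and 325 bp wide, where the overlap was 32.1% of the control peak. The fold enrichment was 2.61 in both libraries at the former, and 3.28 against 2.38 at the latter. The MGO peaks there had a −log10 q of 1.61 and 1.10. With −log10 q of at least 2, only the region at 14.8 kb was in both lists. In control only were a peak 38.1 kb before the gene (chr1:67646244-67647126, −log10 p 5.49) and 1 at the TSS of HNRNPCP9 (chr1:67660320-67660616). The latter had a −log10 q of 1.61, below 2.

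SESN1 encodes sestrin 1, a p53-induced protein that restrains growth signalling under stress. The gene (ENSG00000080546.14) lies on the minus strand at chr6:108984309-109094846. It has its canonical promoter at the 5′ end and an internal group of TSSs 85291 bp and 85858 bp downstream. At the internal group, an element with 3 mismatches, beyond the limit used here, had the edge of the MGO peak within it. It was chosen, after its values were seen, from the 89 elements found with at most 3 mismatches. How often a peak edge fell within an element was not counted. Another element with 3 mismatches, at −131 bp from the canonical TSS of BBC3, lay under no peak. The element of SESN1 is printed below (GRCh38, minus strand, chr6:109009003-109009052, element in capitals).
SESN1 internal element: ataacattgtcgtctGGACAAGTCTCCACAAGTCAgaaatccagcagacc

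The 5′ peak of SESN1 had nearly the same width in both libraries. It was 1399 bp wide in control (chr6:109094406-109095804, fold enrichment 4.26, −log10 p 18.5) and 1404 bp in MGO (chr6:109094264-109095667, fold enrichment 4.29, −log10 p 15.8), and CEP57L1 shares it. The internal peak was narrower in MGO, at 1063 bp in control (chr6:109008825-109009887, fold enrichment 4.30, −log10 p 11.9) and 752 bp in MGO (chr6:109009034-109009785, fold enrichment 4.14, −log10 p 10.1). The 2 promoter peaks of this gene thus had width ratios of 1.00 and 0.707. The MGO peak of the internal group enclosed the TSS at 109009555 and stopped 46 bp short of that at 109008988, and it covered 4 of the 20 bases of the element against 20 in control. The TSS at 109093968 lay near the 5′ peak, at 438 bp in control and 296 bp in MGO, and the other 3 promoters had no peak. In control only were 2 intronic peaks, of 342 bp (chr6:109036767-109037108) and 618 bp (chr6:109053136-109053753), and 1 of 1026 bp beyond the 3′ end (chr6:108967018-108968043). Each had a −log10 q below 2 (1.65, 1.20 and 1.37 in that order). No other MGO peak lay over SESN1 or within 50 kb of its TSSs.

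PCNA encodes the sliding clamp of DNA replication and is known as a target of both E2F and p53. The gene (ENSG00000132646.11) lies on the minus strand at chr20:5114953-5126626 and has 2 promoters, the canonical TSS at 5119958 and a 5′ TSS at 5126626. The 150 bases before the 5′ TSS hold an E2F-like motif, which reads here as its reverse complement, in capitals (GRCh38, chr20:5126627-5126776, minus strand).
PCNA promoter 1: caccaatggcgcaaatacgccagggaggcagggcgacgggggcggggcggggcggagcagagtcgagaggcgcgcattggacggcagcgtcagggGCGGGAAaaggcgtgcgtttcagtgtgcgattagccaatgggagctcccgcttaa

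The canonical promoter of PCNA had the highest fold enrichment and −log10 p of any TSS peak of the 9 genes in each library. The control peak, chr20:5119106-5120348, was 1243 bp wide, with a fold enrichment of 5.24 and a −log10 p of 22.6. The MGO peak, chr20:5119312-5120235, was 924 bp wide, with a fold enrichment of 5.06 and a −log10 p of 17.7. The MGO peak lay whole within the control peak at 0.743 times its width, with the edges inward by 113 bp upstream and 206 bp downstream. At the 5′ promoter, shared with CDS2, the control peak (chr20:5126166-5127773) was 1608 bp wide with a fold enrichment of 3.39 and the MGO peak (chr20:5126347-5127760) was 1414 bp wide with a fold enrichment of 3.61. This peak was also narrower in MGO, but less so, with a width ratio of 0.879, and its fold enrichment was higher. The remaining peak near PCNA, at TMEM230, was in both lists.

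The length under peaks within 1000 bp of the TSSs gives 1 value per gene, which can be set beside all genes. It was lower in MGO for 5 of the 9 genes, and for 69.9% of the 13491 protein-coding genes with a control TSS peak. BBC3 had the lowest ratio, 0.363 (1102 bp in control and 400 bp in MGO), and 8.65% of all genes lay below it. That value was not stable, since with −log10 q of at least 2 BBC3 had 0 bp in control and 400 bp in MGO, and within 500 bp of the TSSs it had 703 bp in control and 1 bp in MGO. FAS followed at 0.774, MDM2 at 0.798, PCNA at 0.815 and SESN1 at 0.876, all within the range from 0.425 to 1.24 that holds the 10th to 90th percentile of all genes. The other 4 genes had slightly more covered length in MGO, with ratios of 1.02 for BAX and CDKN1A, 1.05 for RB1 and 1.08 for GADD45A. The median ratio of the 9 genes was 0.876, beside 0.884 for all genes. With the canonical TSS of each gene alone, 4 of the 9 genes had less covered length in MGO and the median ratio was 1.00.

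**Figure D3:**
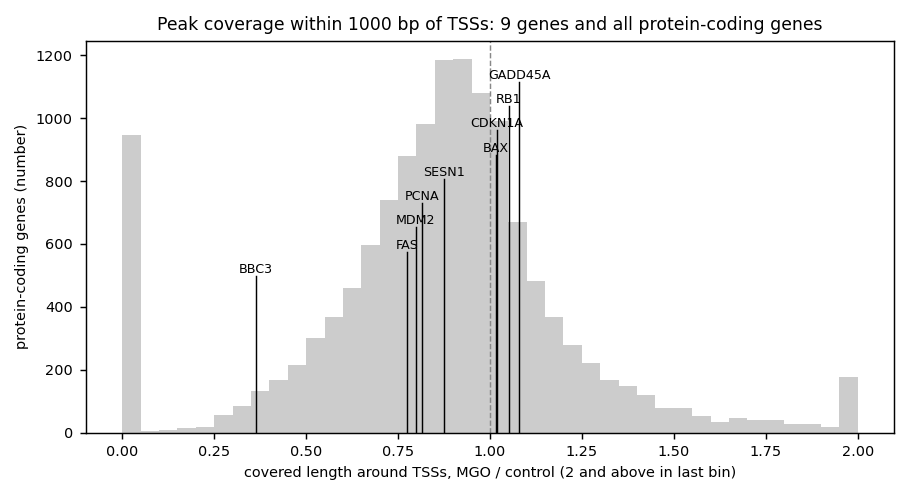
Number of protein-coding genes with a control TSS peak by the ratio of covered length within 1000 bp of TSSs, MGO over control (grey bars, with ratios of 2 and above in the last bin), and the ratio of each of the 9 genes (black lines). The dashed line marks a ratio of 1, with 5 genes below it and 4 above.

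Over the gene bodies and within 50 kb, but outside the genes' own TSSs, the control list had 19 peaks and the MGO list 12. All protein-coding genes together had 12594 such control peaks and 5133 MGO peaks away from any TSS, and 9648 and 8503 at a TSS of another gene, so MGO peaks were fewer genome-wide too. Of those, 9 control and 8 MGO peaks lay at a TSS of another gene, and 7 overlapped the other library in each. Away from any TSS there were 10 control peaks, of which 6 overlapped no MGO peak, and 4 MGO peaks, each of which overlapped a control peak. With −log10 q of at least 2, there were 5 such control peaks, of which 2 overlapped an MGO peak, and 2 MGO peaks, both of which overlapped a control peak. Genome-wide, 77.6% of control peaks away from any TSS and 16.3% of those at a TSS of another gene overlapped no MGO peak. Of MGO peaks of these kinds, 44.4% and 5.34% overlapped no control peak. At the 9 genes 2 of the 9 control peaks at a TSS of another gene overlapped none, and with so few peaks no departure from the genome-wide shares was read.

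**Figure D4:**
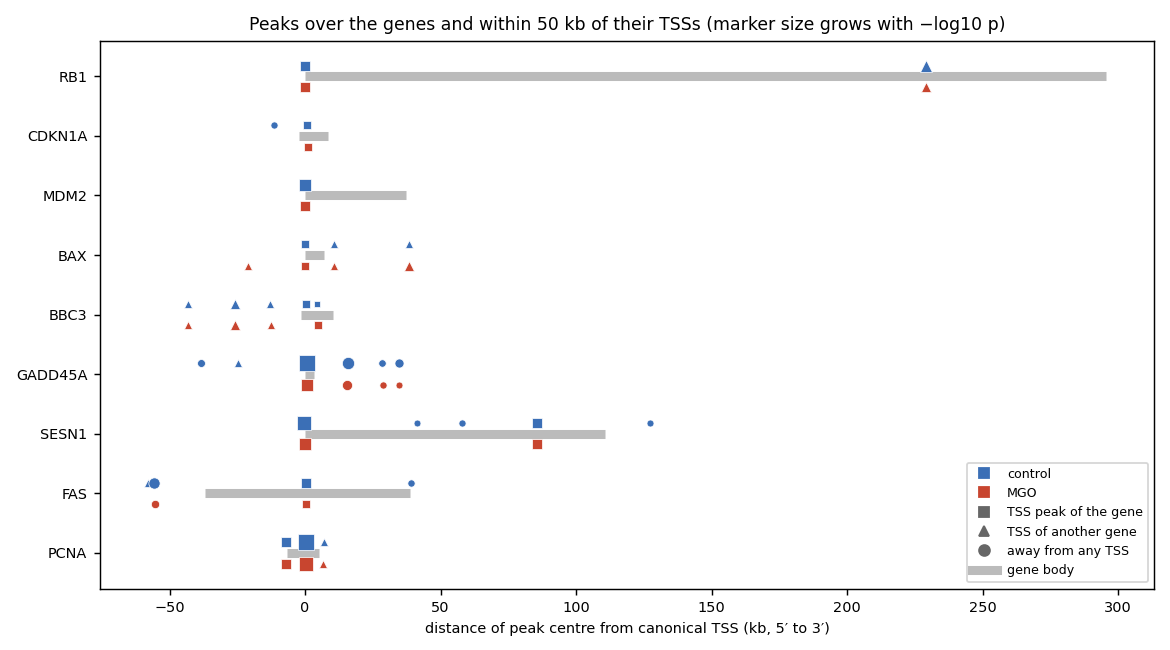
Peaks over the gene bodies (grey) and within 50 kb of the TSSs of the 9 genes, by the distance of the peak centre from the canonical TSS in kb, 5′ to 3′, for control (blue, above) and MGO (red, below). Squares are TSS peaks of the gene, triangles lie at a TSS of another gene, circles lie away from any TSS, and the marker grows with −log10 p. Of 10 blue circles, 4 have a red partner.

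Over the 9 genes and their surroundings, 14 p53-like elements were found, of which 5 lay under a control peak and 3 under an MGO peak. Among 14070 such elements at protein-coding genes, 1.36% lay under a control peak and 0.782% under an MGO peak. A p53-like element was held by 4 of the 12 control TSS peaks and 3 of the 11 MGO TSS peaks, beside 0.648% and 0.547% of all TSS peaks of protein-coding genes. Most of these genes are known as p53 targets, so their elements are no independent sample of the genome. RB1 had 5 elements, all outside peaks, and SESN1, PCNA and BBC3 had 1 each outside peaks. A match is a description of the letters and not of binding.

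The E2F-like motif, searched on both strands as TTCCCGC, as TTCGCGC, as TTGCCGC or as TTGGCGC, in the 250 bases before the first TSS of a promoter, was found at 3 of the 37 promoters. These were the 5′ promoters of RB1, MDM2 and PCNA, and each had a peak in both libraries. The motif was held by 6.23% of all 69537 promoters of protein-coding genes, and by 15% of those with a control peak. The GC content of the genes' TSS peaks ranged from 58.3% at FAS in control to 76.5% at the internal promoter of BBC3 in MGO. The median over all TSS peaks of protein-coding genes was 64.3% in control and 66.0% in MGO.

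The wider pathways were read from 4 lists, and the genes named as strongest were picked by their control value, which favours a lower value in MGO. Of 16 regulators of p53, 14 had a TSS peak in both libraries (87.5%, beside 62.6% of all protein-coding genes) and 2, TP63 and DAXX, in neither. TP63 encodes a p53 family member of epithelia, and DAXX a histone chaperone that binds p53 and MDM2. The strongest control peaks were those of the damage kinase genes ATM, with a −log10 p of 21.9 in control and 14.04 in MGO, and CHEK2, with 21.4 and 7.66. Of 14 regulators with a control peak, 7 had less covered length in MGO, and the median ratio was 0.996. Of all protein-coding genes with a control TSS peak 69.9% had less, with a median ratio of 0.884.

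Of 29 p53 targets, 25 had a TSS peak in both libraries (86.2%). GDF15, which encodes a stress-induced secreted factor, had one in control only (chr19:18374017-18374564, fold enrichment 2.86, −log10 p 3.95). Its −log10 q of 1.75 was below 2, and with that threshold it had no TSS peak in either library. EDA2R, SFN and TRIM22 had no TSS peak in either list. The strongest control peaks were at CCNG1, encoding cyclin G1 (−log10 p 36.6 in control and 19.5 in MGO), and APAF1, encoding the scaffold of the apoptosome (23.04 and 12.95). Covered length was lower in MGO for 14 of 26 targets, with a median ratio of 0.930, beside 69.9% and 0.884 for all protein-coding genes.

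Of 31 RB pathway genes, 27 had a TSS peak in both libraries (87.1%). CCND1 and CCND2, which encode D-type cyclins, had one in control only. The control peak of CCND1 was 419 bp wide (fold enrichment 2.31, −log10 p 3.82), and that of CCND2 was 3187 bp wide (fold enrichment 2.42, −log10 p 4.78). With −log10 q of at least 2, CCND2 was still in control only, while CCND1, with 1.63, had no TSS peak in either library. E2F2 and LIN37 had none among all deposited peaks. The strongest control peaks were at CDKN2B, encoding the kinase inhibitor p15 (−log10 p 32.3 in control and 28.4 in MGO), and E2F7, encoding a repressor E2F (26.3 and 20.3). Covered length was lower in MGO for 22 of 29 genes, with a median ratio of 0.897, beside 69.9% and 0.884 for all protein-coding genes.

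Of 30 E2F targets of DNA replication, 29 had a TSS peak in both libraries (96.7%). The strongest control peaks were at the helicase genes MCM3 (−log10 p 26.6 in control and 14.5 in MGO) and MCM6 (19.0 and 7.06). CCNA2, encoding cyclin A2 and chosen after its values were seen, had the strongest MGO peak of the list and the opposite order (15.2 in control and 21.95 in MGO). The −log10 p was lower in MGO for 22 of the 29 genes with a peak in both. In the other lists it was lower for 8 of 14 p53 regulators, 19 of 25 p53 targets and 20 of 27 RB pathway genes. Of all shared TSS peaks 77.5% were lower, but that share is over overlapping pairs. The lists take 1 peak per gene in each library, and these did not always overlap, as at RRM2. Covered length was lower in MGO for 16 of 29 E2F targets, with a median ratio of 0.969, beside 69.9% and 0.884 for all protein-coding genes. Among all deposited peaks, none of the 4 lists had a gene with a peak in MGO only, and 253 of 20033 protein-coding genes had one. With −log10 q of at least 2, the share in both was 62.5% for the p53 regulators, 86.2% for the p53 targets, 83.9% for the RB pathway and 90% for the E2F targets, beside 56.4% of all protein-coding genes. The share of the p53 regulators thus came closer to that of all genes. The lists also hold genes expressed in most dividing cells, and their shares were not compared by a test.

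**Figure D5:**
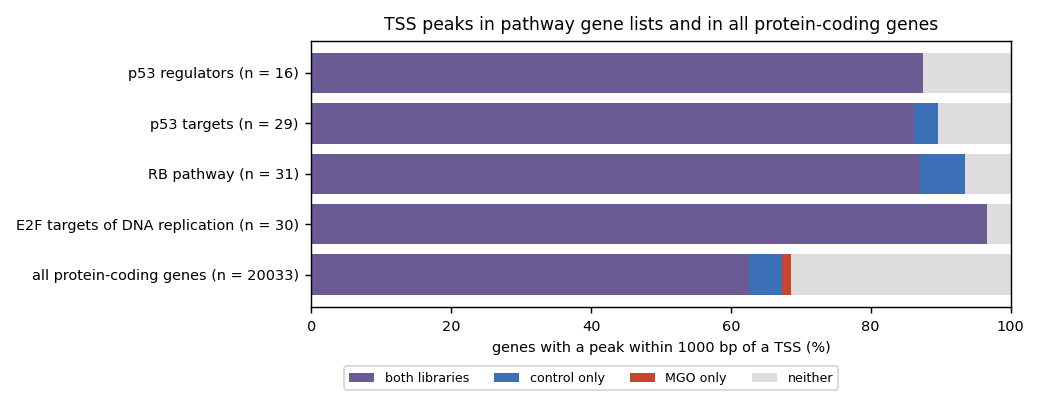
Share of genes with a peak within 1000 bp of a TSS in both libraries, in control only, in MGO only or in neither, in percent, for 4 pathway lists and for all protein-coding genes. The share in both ranged from 86.2% to 96.7% over the lists, beside 62.6% of all protein-coding genes, and with −log10 q of at least 2 from 62.5% to 90%, beside 56.4%.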

How the data were processed

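The deposited peaks are broad peaks that the authors called in each sample with MACS2, outside blacklisted regions. The input was paired ATAC-seq reads aligned to GRCh38.p12 with BWA 0.7.15. Libraries were brought to a common depth by random subsampling, after a Picard step against mitochondrial and multi-mapping reads. The MACS2 version is not given in the sources used here. For each peak the authors deposited a fold enrichment (a ratio), a −log10 p-value, a −log10 q-value and a score, which was not used. The lists reached down to a −log10 q of 1.01, and 23907 control and 16093 MGO peaks had at least 2. Subsampling equalises reads and not enrichment, and removal of multi-mapping reads can leave repeated sequence without peaks. The lists also held 627 control and 505 MGO peaks on other contigs, which were not assigned to genes.

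The peaks were joined to GENCODE 44 in Python 3.11.15 (pandas 2.3.3, numpy 2.4.6), and overlaps were checked with bedtools 2.31.1 and tested on simulated data. All deposited peaks entered. The members and lists were chosen with earlier results of these data known. Every TSS and gene body peak of the 9 genes was named, and from each list the genes without a peak in both libraries and the 2 with the highest control −log10 p. Some results of this rule are not reported here. An element counted as under a peak when its 20 bases all lay within it. The alternatives were other peak thresholds, overlaps, distances, TSS sets and mismatch limits. The reads, consensus peaks and nucleosome positions were not analysed here.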

Additional observations from a re-analysis of the deposited data

How the results depend on the processing

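Of 192 values recomputed under the alternatives, 130 moved little and 62 moved. Of the 118 that answer a comparison, 31 moved, all of them under alternatives that change how many peaks, promoters, bases or mismatches are admitted. Values counted as moving little could still cross a ratio of 1. The median width ratio was counted so, at 0.879 as reported and 1.01 with the canonical TSS alone. Peaks narrower in MGO were 6 of 11 pairs as reported and 3 of 8 with the canonical TSS alone. With −log10 q of at least 5, the other peaks at the 9 genes were 7 in control and 4 in MGO. The genes with a TSS peak in both libraries were then 4 p53 regulators, 19 p53 targets, 16 RB pathway genes and 13 E2F targets. No share of all protein-coding genes is given for this setting. With a fold enrichment of at least 4, 3 of the 9 genes had a TSS peak in control and 2 in MGO and in both, at 7 promoters in control and 5 in MGO and in both. Under that setting 3 TSS peaks in each library overlapped the other, and the median ratio of covered length was 0.743. The other peaks were 3 in control and 1 in MGO. The lists had 0 p53 regulators, 7 p53 targets, 4 RB pathway genes and 3 E2F targets in both. No share of all protein-coding genes is given for that setting either. Fold enrichment was lower in MGO in 74.7% of shared TSS peaks of protein-coding genes, so fewer MGO peaks there are not particular to these genes. With the canonical TSS alone, 9 promoters had a peak in control and 8 in MGO and in both, and the median ratios of width and covered length were 1.01 and 1.00. Within 10 kb the other peaks were 6 and 3, and within 100 kb 38 and 23. For the canonical TSS alone and for these distances no share of all protein-coding genes is given. With at most 1 mismatch 4 p53-like elements were found, 2 under control and 1 under MGO peaks. Of all such elements at protein-coding genes, 2.12% lay under a control peak and 0.849% under an MGO peak. With at most 3 mismatches 89 were found, 6 under control and 3 under MGO peaks, beside 0.991% and 0.602% at protein-coding genes. With −log10 q of at least 2, 8 of the 9 genes had a TSS peak in control and 9 in MGO, the exception being BBC3. No paired analysis was possible because the lists analysed here come from 1 control and 1 MGO library. The lists carry no read counts, so edges and calls near the threshold have no error, and a peak missing from a list is not shown to be closed chromatin.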
